A study of Homo sapiens with 4 samples.

Results

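The genes described here encode the core of the actin cycle: the cytoplasmic actins ACTB and ACTG1, the cofilins CFL1 and CFL2, the profilins PFN1 and PFN2, the thymosins TMSB4X and TMSB10, the Arp2/3 subunit ARPC2 and the cyclase-associated protein CAP1. They were taken by symbol as a list of 10 genes among the 62443 genes of the RNA sequencing table, after results of the same table were known, so their differences between the groups are given as values without a test. RNA of cells labelled HGC-27, a human gastric cancer line, was sequenced in 4 libraries, 2 without treatment (Con) and 2 after treatment with the GLUP peptide (GLUP). GLUP is a macrocyclic peptide built from the TEAD4-binding motif of VGLL4, made to glue molecules of the transcription factor TEAD4 together, and the question was which genes change when it is applied at 10 μg/ml. The time of treatment is given as 12 h in one place of the study and as 48 h in another, and its methods name the buffer of the peptide as the control where the sample labels record none. All 4 libraries come from this single line, grown in serum. Values are in FPKM, in which fragments are scaled to transcript length and to the size of the library.

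Actin is present in cells as monomers and as filaments that grow at one end and shrink at the other. Thymosins hold monomers in reserve, profilins load them with ATP and hand them to growing ends, and the Arp2/3 complex starts new branches. Cofilins sever old filaments and CAP1 helps recycle the monomers that come off. The free monomers also bind the MRTF coactivators of the transcription factor SRF, a loop through which the actin pool feeds back on actin genes.

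The starts of 6 of these genes are shown because 2 factors named above read defined motifs there, SRF the CArG box and TEAD4 the letters CATTCC. RefSeq start sites on GRCh38.p14 were at hand for 8 of the 10 genes, with ACTB and PFN2 not matched. The 100 bases before the start are printed 5′ to 3′ on the strand of the gene, in lower case, with matches to the CArG box, to CATTCC, to GGGCGG (the GC box), to TATAAA and to CCAAT, on either strand, in capitals, and overlapping matches run together. The CFL2 line is the more upstream of its 2 starts.
ACTG1, chr17:81512800-81512899, minus strand: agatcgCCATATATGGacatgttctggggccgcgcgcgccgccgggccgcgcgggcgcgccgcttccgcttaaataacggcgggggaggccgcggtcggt
CFL1, chr11:65858181-65858280, minus strand: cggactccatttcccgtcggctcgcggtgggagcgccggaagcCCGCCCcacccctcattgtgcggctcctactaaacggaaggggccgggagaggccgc
CFL2, chr14:34714594-34714693, minus strand: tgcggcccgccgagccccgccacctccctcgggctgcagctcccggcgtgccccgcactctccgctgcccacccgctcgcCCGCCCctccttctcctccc
PFN1, chr17:4948531-4948630, minus strand: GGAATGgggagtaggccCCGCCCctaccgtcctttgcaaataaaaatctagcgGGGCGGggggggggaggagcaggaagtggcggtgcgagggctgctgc
TMSB10, chr2:84905556-84905655, plus strand: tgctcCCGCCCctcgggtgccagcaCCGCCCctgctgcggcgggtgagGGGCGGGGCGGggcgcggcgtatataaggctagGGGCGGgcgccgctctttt
TMSB4X, chrX:12975010-12975109, plus strand: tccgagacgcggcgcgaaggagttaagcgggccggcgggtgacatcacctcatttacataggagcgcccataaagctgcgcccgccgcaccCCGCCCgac
Over the 250 bases before the start, the CArG box was found in ACTG1 and in none of the other 7 genes, and in 1.16% of all 35116 promoters of the same table. CATTCC or its complement was found in PFN1 and in none of the other 7, against 11.9% of all promoters. The GC box GGGCGG was found at every start of these genes except 2 of the 3 starts of CAP1, and in 42.6% of all promoters. TATAAA was found in none of the 8 genes and in 10.7% of all promoters, and CCAAT was found in ACTG1, CFL1 and CAP1 and in 32.0% of all promoters. Such matches describe letters in a window and no binding was measured.

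TMSB10 was by far the most abundant of the 10 mRNAs and CAP1 the least. In order of the mean over the 4 libraries they were TMSB10 (7226 FPKM), ACTB (866 FPKM), TMSB4X (685 FPKM), ACTG1 (368 FPKM), PFN1 (229 FPKM), CFL1 (183 FPKM), ARPC2 (115 FPKM), PFN2 (18.6 FPKM), CFL2 (15.7 FPKM) and CAP1 (5.49 FPKM). In every library TMSB10 stood between rank 21 and rank 28 of all genes. The ranges over libraries overlapped for each pair of neighbours in this order except TMSB10 with ACTB and ARPC2 with PFN2. All 10 genes passed the filter, a mean over libraries of 1 FPKM or more, which 7588 genes passed in all and which defines the genes tested. Together they took 0.90% and 0.890% of the summed FPKM in the Con libraries and 1.22% and 1.16% in the GLUP libraries, most of it TMSB10.

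**Figure D1:**
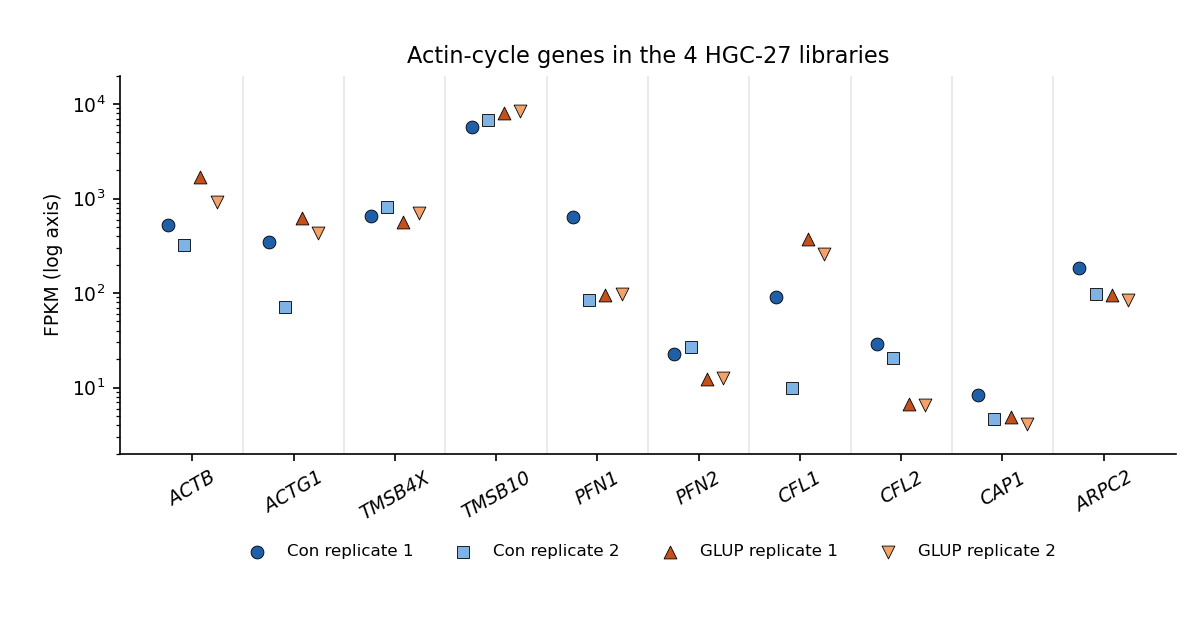
FPKM of the 10 genes on a log axis, with 1 point for each of the 4 libraries. CFL1 and both actins are higher in both GLUP libraries than in both Con libraries, CFL2 and PFN2 are lower, and Con replicate 1 stands far above the other libraries for PFN1.

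On the mean of the controls, CFL1 and both actins were higher with GLUP, and CFL2 and PFN1 were lower, PFN1 through a single control library. The scale for differences is the mean of log2(FPKM + 1) in GLUP minus that in Con, on which a doubling is 1 and changes of low genes are understated. On it, 5 of the 10 genes were past 2-fold, as were 23.1% of all genes tested. Of these, 3 (CFL1, ACTG1 and ACTB) were higher, as were 6.83% of all genes, and 2 (CFL2 and PFN1) were lower, as were 16.3%. On the higher side ACTB at 1.60 was the member nearest past the 2-fold line and TMSB10 at 0.41 the nearest inside it. Both GLUP libraries lay above both Con libraries for 4 genes (CFL1, ACTG1, ACTB and TMSB10), which held for 17.5% of all genes, and below for 3 (CFL2, PFN2 and ARPC2), which held for 49.7%. For PFN1, TMSB4X and CAP1 the groups overlapped. The median difference over the 10 genes was −0.32, beside −0.36 over all genes tested. As the members were listed with this contrast known, nothing is read from these counts, and since RNA was taken from whole cultures, a change in the cells present and a change in RNA per cell cannot be told apart. With 2 libraries against 2, an exact permutation test cannot give a two-sided p under 0.333.

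The controls were not alike. Over the genes tested, Pearson's r was 0.933 between the Con libraries and 0.986 between the GLUP libraries, given as a description of libraries and not as a test. Con replicate 1 stood at 0.952 and 0.957 with GLUP replicates 1 and 2, above its value with Con replicate 2. Con replicate 2 stood at 0.873 and 0.886 with the same GLUP libraries. The Con libraries differed by more than 2-fold for 3 of the 10 genes (PFN1, CFL1 and ACTG1) and for 19.1% of all genes tested, whereas the GLUP libraries did so for none of the 10 and for 1.63% of all. The comparison was also made with each control library alone. Against Con replicate 1, 2 members were past 2-fold higher (CFL1 and ACTB) and 3 past 2-fold lower (PFN1, CFL2 and ARPC2), beside 2.31% and 12.7% of all genes. Against Con replicate 2, 3 were past 2-fold higher (CFL1, ACTG1 and ACTB) and 2 past 2-fold lower (CFL2 and PFN2), beside 13.0% and 23.3% of all genes. PFN1 is the one member whose direction depended on the control used. The median over the 10 genes was −0.42 against Con replicate 1 and 0.07 against Con replicate 2, beside −0.34 over all genes in each case.

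**Figure D2:**
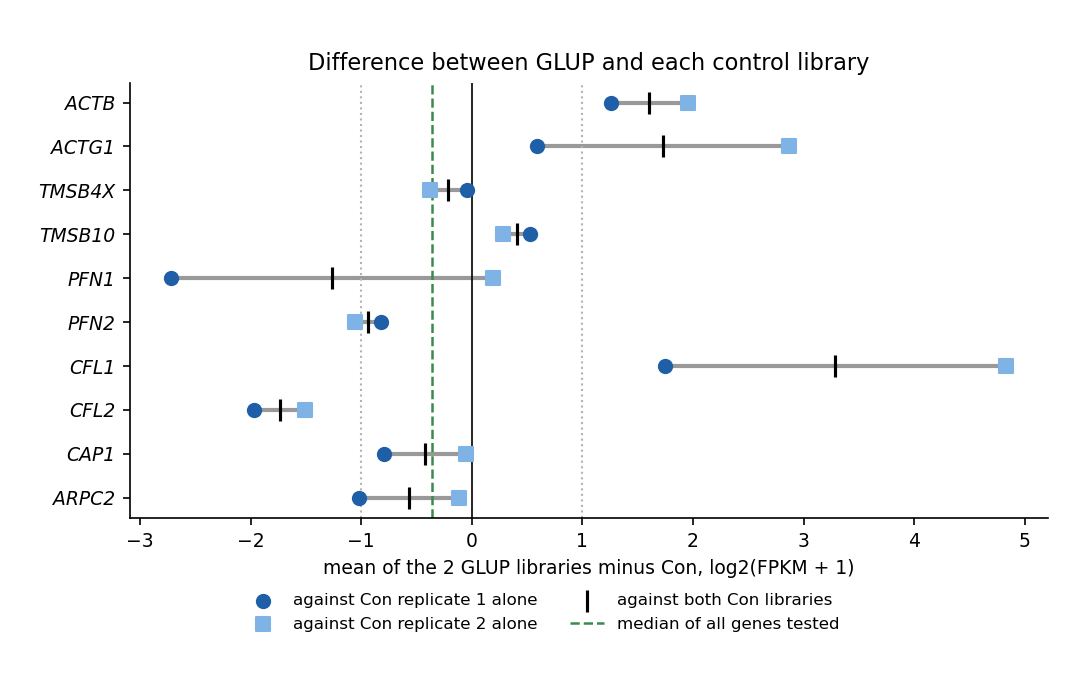
Mean of the GLUP libraries minus Con on the log2(FPKM + 1) scale for the 10 genes, against Con replicate 1 alone, against Con replicate 2 alone and against both, with dotted lines at a doubling and a halving. CFL1 and the actins lie right of 0 and CFL2 and PFN2 left of 0 whichever control is used, and the bar of PFN1 crosses 0.

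ACTB, the cytoplasmic β-actin, is encoded on chromosome 7 from 5566040 to 5603533 of GRCh37. Its level was 524 and 323 FPKM in Con replicates 1 and 2, and 1686 and 929 FPKM in GLUP replicates 1 and 2, the order kept for every gene here. Both GLUP values lay above both controls, and GLUP replicate 1 was itself 1.81-fold above GLUP replicate 2, a gap that 2.60% of all genes tested matched or exceeded. The mean was 423 ± 142 FPKM (SD, n = 2) in Con and 1308 ± 535 FPKM (SD, n = 2) with GLUP, or 3.09-fold higher, and it was 2.50-fold and 4.05-fold higher against Con replicates 1 and 2 alone.

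ACTG1, the cytoplasmic γ-actin on chromosome 17 (79476439 to 79490873), had levels of 346 and 70.4 FPKM in Con and of 622 and 435 FPKM with GLUP. Here the controls were 4.91-fold apart, a gap reached by 1.44% of all genes tested, and the size of the difference depended on the control used. It was 1.53-fold higher against Con replicate 1 alone and 7.5-fold higher against Con replicate 2 alone. The summed FPKM of both actins was 869 and 393 in Con and 2308 and 1364 with GLUP. The ratio of ACTB to ACTG1 was 1.51 and 4.58 in the Con libraries and 2.71 and 2.14 in the GLUP libraries, so that the balance between the 2 actins with GLUP lay inside the range of the controls. Their coding sequences are identical at 91.2% of 1128 positions, and how the counting split reads between them is not stated.

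The cofilins stood on opposite sides of their controls. CFL1, the cofilin of most non-muscle cells, on chromosome 11 (65590493 to 65629497), had levels of 91.6 and 9.93 FPKM in Con and of 369 and 259 FPKM with GLUP. Both GLUP values were above both controls, which were themselves 9.23-fold apart, a gap that 0.277% of all genes tested reached. CFL1 was 3.43-fold higher than Con replicate 1 alone and 31.7-fold higher than Con replicate 2 alone, and its log2 difference was 1.74 and 4.83 in turn. Its rank among all genes was 671 and 2391 in Con and 275 and 344 with GLUP.

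CFL2, the cofilin best known from muscle, lies on chromosome 14 from 35178319 to 35184029. It stood at 28.8 and 20.7 FPKM in Con and at 6.71 and 6.56 FPKM with GLUP. Replicates of either group were close and the groups did not overlap, with a mean of 24.8 ± 5.78 FPKM (SD, n = 2) in Con and 6.63 ± 0.111 FPKM (SD, n = 2) with GLUP. The Con mean was 3.73 times the GLUP mean, and the controls alone were 4.35 and 3.12 times it. Among the members past 2-fold, CFL2 is the gene whose difference depended least on the control, with log2 differences of −1.97 and −1.51.

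The ratio of CFL1 to CFL2 does not depend on how a library was scaled. It was 3.18 and 0.480 in the Con libraries and 55.0 and 39.6 in the GLUP libraries. CFL1 thus made up 76.1% and 32.4% of the cofilin FPKM in Con and 98.2% and 97.5% with GLUP. CFL2 was the more abundant cofilin in Con replicate 2 and the less abundant in the other 3 libraries. The log2 ratio differed by 5.24 between the groups, or by 5.02 with 1 FPKM added to both genes. The ratio was not corrected for GC content, in which CFL1 (57.7%) and CFL2 (34.8%) are the extremes of the members. With a GC trend taken out of each library, their log2 differences were 2.90 and −0.87, as given below. The coding sequences of CFL1 and CFL2 are identical at 70.1% of 501 positions.

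Of the profilins, only PFN2 separated the groups. PFN1, the ubiquitous profilin on chromosome 17 (4848947 to 4852356), had levels of 638 and 83.9 FPKM in Con and of 95.1 and 97.3 FPKM with GLUP. Con replicate 1 was high and the other 3 libraries were close to each other, so the log2 difference of −1.26 rests on 1 library. It was −2.72 against Con replicate 1 alone and 0.20 against Con replicate 2 alone. A gap between controls as large as that of PFN1, 7.60-fold, was found for 0.422% of all genes tested, and for PFN1, CFL1 and ACTG1 alike Con replicate 2 was the lower one.

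PFN2, the profilin enriched in neurons, on chromosome 3 (149682691 to 149768575), had levels of 22.6 and 26.9 FPKM in Con and of 12.3 and 12.6 FPKM with GLUP. Each group was tight and the groups did not overlap, and the Con mean of 24.8 ± 3.0 FPKM (SD, n = 2) was 1.99 times the GLUP mean of 12.4 ± 0.193 FPKM (SD, n = 2). Its log2 difference of −0.94 is just inside the 2-fold line, with PFN1 at −1.26 the member just past it on that side. The ratio of PFN1 to PFN2 was 28.2 and 3.12 in Con and 7.74 and 7.75 with GLUP, between the controls.

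The thymosins were within 1.5-fold of their controls. TMSB10, on chromosome 2 (85132780 to 85133795), had levels of 5694 and 6753 FPKM in Con and of 7987 and 8469 FPKM with GLUP. The groups did not overlap, and the GLUP mean was 1.32 times the Con mean. TMSB4X, on chromosome X (12993229 to 12995346), had levels of 650 and 821 FPKM in Con and of 560 and 708 FPKM with GLUP, and the groups overlapped. The ratio of TMSB10 to TMSB4X was 8.75 and 8.22 in Con and 14.3 and 12 with GLUP. As a ratio of summed FPKM, which counts transcripts and not protein, thymosins stood at 7.30 and 19.3 per actin in Con and at 3.70 and 6.73 per actin with GLUP. Profilins stood at 0.760 and 0.282 per actin in Con and at 0.0465 and 0.0805 with GLUP. For both families the GLUP ratios lay below those of both controls, and the cofilins, at 0.139 and 0.0778 in Con and 0.163 and 0.195 with GLUP, lay above. These ratios also carry the actin sum, which was higher with GLUP. The thymosin sum was itself higher with GLUP, at 6344 and 7574 FPKM in Con and 8547 and 9177 FPKM with GLUP. The profilin sum was 660 and 111 FPKM in Con and 107 and 110 FPKM with GLUP.

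The genes of branching and monomer recycling on the list were close to Con replicate 2 and lower than Con replicate 1. ARPC2, a core Arp2/3 subunit that binds the mother filament, on chromosome 2 (219081864 to 219119079), had levels of 183 and 97.6 FPKM in Con and of 96.5 and 84.2 FPKM with GLUP. The highest GLUP value lay just under the lower control. Its log2 difference was −1.02 against Con replicate 1 and −0.11 against Con replicate 2. CAP1, on chromosome 1 (40505905 to 40538321), had levels of 8.41 and 4.65 FPKM in Con and of 4.85 and 4.07 FPKM with GLUP, with groups that overlapped and log2 differences of −0.79 and −0.05 against each control alone.

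The members of lowest GC content, CFL2 and PFN2, were lower with GLUP and those of the highest, ACTB and CFL1, were higher, whereas members of intermediate GC content lay on both sides. In the longest annotated transcript the GC content ran from 34.8% in CFL2 and 41.6% in PFN2 to 56.5% in ACTB and 57.7% in CFL1. Over all genes tested, the median log2 difference was −0.78 in the lowest of 5 groups of equal size by GC content, where CFL2 lies, −0.64 in the next, where PFN2 lies, and −0.41 in the middle one, which holds ARPC2. It was 0.02 in the next, which holds ACTG1, PFN1, TMSB4X, TMSB10 and CAP1, and 0.44 in the highest, which holds ACTB and CFL1. The Con libraries also differed along GC content. The median of Con replicate 2 minus Con replicate 1 was 0.24 in the lowest group and −0.64 in the highest. With a smooth GC trend taken out of each library, the log2 difference was 2.90 for CFL1, 1.60 for ACTG1, 1.29 for ACTB, −0.87 for CFL2 and −0.28 for PFN2. CFL2 was then no longer past 2-fold, which left 3 members higher (5.76% of all genes) and 1 lower (5.63%). The part of GC content in the members' values was not tested further. Of the 607 genes that averaged 100 FPKM or more, 96 were past 2-fold higher and 98 past 2-fold lower, with a median of −0.14.

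**Figure D3:**
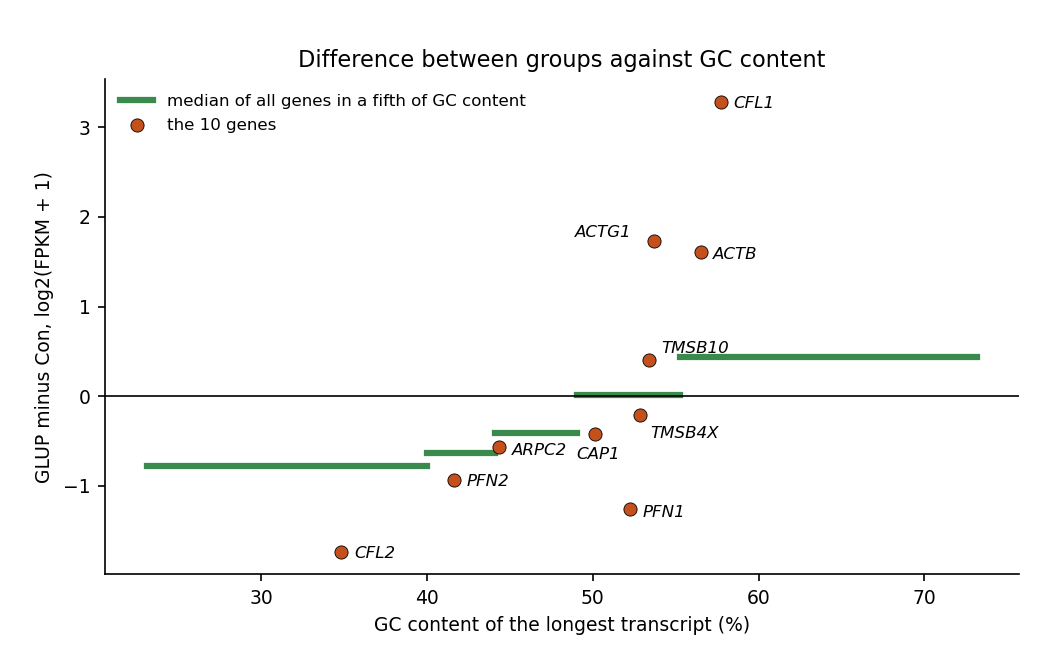
Log2 difference of the 10 genes (GLUP minus Con, log2(FPKM + 1)) against the GC content of the longest transcript, with the median of all genes tested in each of 5 equal groups by GC content drawn as a bar over its range. CFL1, the actins and TMSB10 lie above the bar of their group, and CFL2, PFN2, PFN1, ARPC2, TMSB4X and CAP1 lie below theirs.

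All genes together lay at a median of −0.36, and centring the libraries on their medians shifts every difference alike by 0.34. CFL1, ACTG1 and ACTB then stood at 3.63, 2.07 and 1.95, CFL2 at −1.39 and PFN1 at −0.92. TMSB4X changed sign, from −0.21 to 0.13, and was the one member to do so under median centring, quantile normalization or the GC correction. After centring, 3 members were past 2-fold higher (12.2% of all genes) and 1 lower (6.93%), and after quantile normalization 3 higher (10.6%) and 2 lower (7.79%). Over all genes tested, 518 were past 2-fold higher and 1235 lower as deposited, against 922 and 526 after centring, 805 and 591 after quantile normalization and 437 and 427 after the GC correction.

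Reads from near-identical copies could enter some of these values, since the way shared reads were counted is not stated. In the canonical transcripts, the share of 50-base words also present in a transcript of another gene was 28.1% for TMSB4X, 14.5% for PFN1, 12.1% for ACTB, 6.56% for CAP1, 5.56% for ACTG1 and 2.43% for TMSB10. It was under 1% for CFL1 (0.59%) and CFL2 (0.45%) and 0 for PFN2 and ARPC2. The summed pseudogenes of PFN1 were the largest beside their parent gene, with 11 of them at 5.08% to 9.83% of PFN1. The 12 of ACTB summed to 0.0542% to 0.103% of ACTB, the 21 of ACTG1 to 0.825% to 1.94% of ACTG1, and the 8 of CFL1 to at most 0.260% of CFL1. PFN1P1, a copy that holds all of the words PFN1 shares, stood at 39.4 and 7.0 FPKM in Con and at 4.24 and 8.53 FPKM with GLUP. Con replicate 1 was the high library for PFN1P1 as for PFN1, and PFN1P1 was between 4.46% and 8.77% of PFN1. TMSB4XP8 stood at 15.9 and 18.4 FPKM in Con and at 9.96 and 16.0 FPKM with GLUP, between 1.78% and 2.45% of TMSB4X, and ACTG1P14 at 1.27 and 0.521 FPKM against 3.20 and 3.04 FPKM. Of genes that overlap a member on GRCh37, MUS81 (opposite CFL1, at most 1.76 FPKM) and ENO3 (opposite PFN1, at most 3.49 FPKM) averaged 1 FPKM or more.

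The other genes of actin assembly were read from 9 lists by role, which hold 95 genes, 45 of them tested. Past 2-fold, 5 of the 45 were higher and 7 lower with GLUP, beside 6.83% and 16.3% of all genes tested, and each count of a list below is to be read beside these shares. In 8 both GLUP libraries lay above both controls and in 20 below, beside 17.5% and 49.7% of all genes, and the median log2 difference was −0.23 beside −0.36. None of the 45 had an adjusted p under 0.05 in limma (Benjamini-Hochberg over the 7588 genes, smallest adjusted p = 0.10), and 17 had an unadjusted p under 0.05, as had 31.7% of all genes tested. Of the 45, 11 were both past 2-fold and under that unadjusted p, as were 19.2% of all genes tested. The same test called 2 genes of 7588 past 2-fold (0.0264%), so values and counts are given here and no gene of these lists is called changed.

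The Arp2/3 subunits stood on both sides of their controls. Of the other 8 subunits, 1 was past 2-fold higher (6.83% of all genes), 3 lower (16.3% of all genes) and 4 within 2-fold, with a median of −0.41. ARPC1B, one form of the propeller subunit, stood at 52.0 and 12.1 FPKM in Con and at 189 and 168 FPKM with GLUP. It is the subunit past 2-fold higher, and its log2 difference of 2.76 (SE 0.67, adjusted p = 0.10 in limma) was 1.76 against Con replicate 1 alone and 3.77 against Con replicate 2 alone. Its alternative form ARPC1A stood at 21.3 and 21.7 FPKM in Con and at 27.6 and 22.8 FPKM with GLUP. ARPC5 was at 70.6 and 122 FPKM against 30.8 and 49.4 FPKM, and ACTR2, the actin-related core, at 16.8 and 34.2 FPKM against 9.74 and 6.39 FPKM. For both of these the GLUP libraries were the lower ones and Con replicate 2 was the highest library. ARPC3 overlapped, at 101 and 73.0 FPKM against 69.7 and 74.1 FPKM.

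Among proteins that bind monomers or take filaments apart, 9 of 14 were tested, with 1 past 2-fold higher (6.83% of all genes), 1 lower (16.3% of all genes) and a median of −0.07. DSTN, the destrin that completes the cofilin family, stood at 42.5 and 27.7 FPKM in Con and at 20.2 and 26.3 FPKM with GLUP, a log2 difference of −0.55 (adjusted p = 0.322 in limma). The values of the other thymosin genes TMSB15B (8.11 and 16.8 FPKM against 5.54 and 3.71 FPKM) and TMSB15A (5.92 and 5.76 FPKM against 4.44 and 5.29 FPKM) are uncertain, since they are near-copies of each other. Of the other actins only ACTA2, a smooth muscle actin, passed the filter. It stood at 91.3 and 29.0 FPKM in Con and at 141 and 118 FPKM with GLUP. ACTG2 and ACTA1 had means of 0.0939 and 0.0233 FPKM over the libraries, and ACTC1 and ACTBL2 were listed at 0 in all libraries.

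Capping proteins cover filament ends, and 7 of 13 genes of capping and severing were tested, with 0 past 2-fold higher (6.83% of all genes), 2 lower (16.3% of all genes) and a median of −0.30. CAPZA1 stood at 163 and 1020 FPKM in Con and at 89.3 and 79.4 FPKM with GLUP, so that Con replicate 2 was far above the rest. CAPZA2, the other α subunit, stood at 26.0 and 20.6 FPKM in Con and at 6.17 and 7.31 FPKM with GLUP, a log2 difference of −1.64 (SE 0.32, adjusted p = 0.10 in limma) that was close against either control, at −1.80 and −1.48. CAPG, a capping protein of the gelsolin family, was at 92.6 and 12.9 FPKM against 63.7 and 60.6 FPKM.

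Of the crosslinkers, 7 of 12 were tested, with 2 past 2-fold higher (6.83% of all genes), 1 lower (16.3% of all genes) and a median of −0.33. TAGLN2 stood at 11.3 and 2.27 FPKM in Con and at 30.6 and 20.5 FPKM with GLUP, and ACTN1, an α-actinin, at 2.19 and 0.782 FPKM against 4.03 and 3.74 FPKM. PLS3, the plastin of non-blood cells, was lower, at 5.67 and 5.51 FPKM against 2.33 and 1.81 FPKM, and SPTAN1, a spectrin, was at 6.69 and 4.96 FPKM against 4.09 and 4.47 FPKM. The replicates of PLS3 were close in either group, whereas TAGLN2 and ACTN1 had their lowest value in Con replicate 2.

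The activators of Arp2/3 were within 2-fold in all 8 tested of 14, with a median of −0.05. BRK1 stood at 70.4 and 39.1 FPKM in Con and at 69.1 and 58.7 FPKM with GLUP, WIPF1 at 9.07 and 6.48 FPKM against 6.31 and 8.21 FPKM, and CTTN, the cortactin of branch points, at 13.7 and 8.48 FPKM against 22.6 and 22.5 FPKM. CTTN was the member of this list whose GLUP libraries both lay above the controls. The formins, which build unbranched filaments, were low, with 3 of 13 tested and a median of −0.50. DAAM1, DIAPH1 and DIAPH3 had means of 2.60, 2.51 and 1.73 FPKM.

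Cofilin activity is set by phosphorylation, and the genes listed for its control, direct or upstream, were near the floor of the table. Of 13, only PAK1 and ROCK1 were tested. PAK1 stood at 2.69 and 2.71 FPKM in Con and at 1.5 FPKM in each GLUP library, a log2 difference of −0.56 (adjusted p = 0.172 in limma), and ROCK1 at 1.24 and 2.52 FPKM against 0.839 and 0.798 FPKM. Neither the LIM kinases nor the slingshot phosphatases reached a mean of 1 FPKM. The actin-sensing coactivators MRTFA and MRTFB and their partner SRF also had means under 1 FPKM, at 0.934, 0.528 and 0.836 FPKM, and were outside the test.

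**Figure D4:**
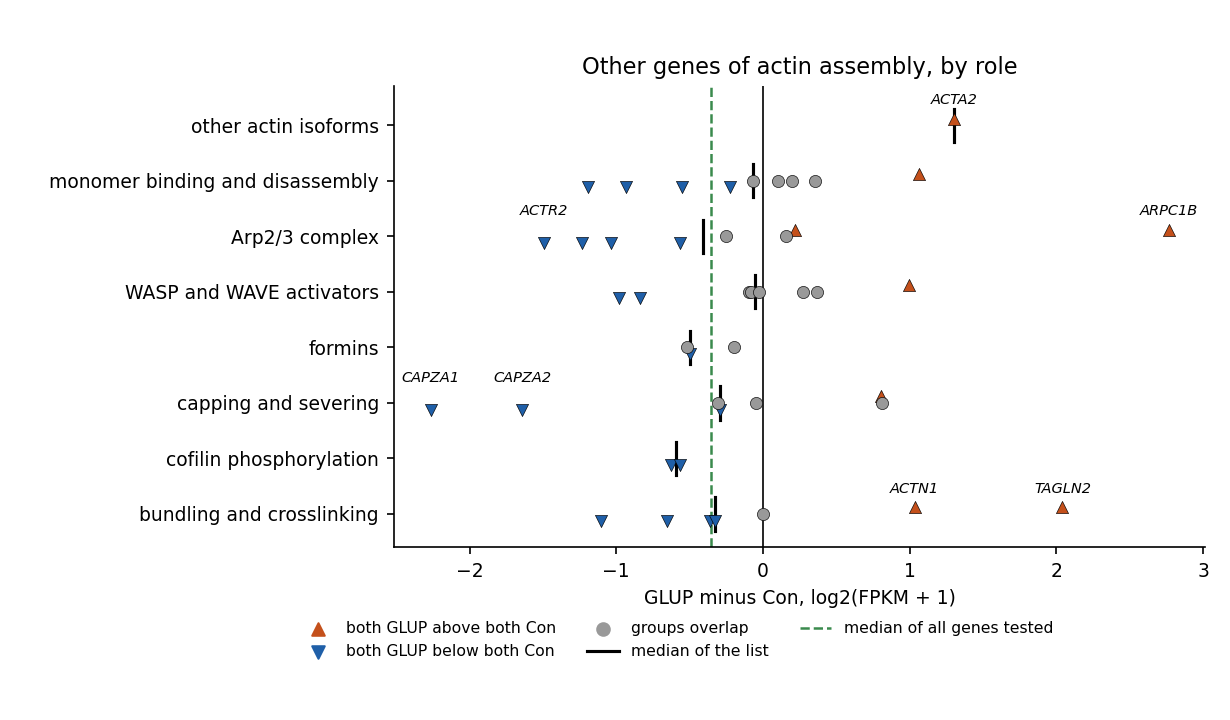
Log2 difference (GLUP minus Con, log2(FPKM + 1)) of 45 other actin assembly genes, 1 point a gene, grouped by role, with markers for whether the groups overlap and a bar at the median of each list. The lists spread to both sides, with ARPC1B at 2.76 and CAPZA1 at −2.27 as the ends.

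ACTB was the internal reference of the study's RT-PCR, so its level was compared with 13 genes in common use for that purpose. The highest library was 5.22 times the lowest for ACTB, and this ratio was smaller for 10 of the 13, from 1.44 for HPRT1 upwards. It was larger for GAPDH (11.9) and SDHA (13.3), among others. Of the 13, 6 were past 2-fold higher, among them GAPDH, PPIA, RPLP0 and SDHA, and 0 lower, beside 6.83% and 16.3% of all genes tested, with a median log2 difference of 0.46. B2M stood at 10387 and 6942 FPKM in Con and at 11518 and 11832 FPKM with GLUP, GAPDH at 3318 and 569 FPKM against 6762 and 5405 FPKM, and PPIA at 2115 and 1271 FPKM against 4415 and 3765 FPKM. None of the 13 had an adjusted p under 0.05 in limma, and PPIA had the smallest adjusted p of 0.10. An unadjusted p under 0.05 in limma was found for 7 of them, beside 31.7% of all genes tested.

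Ratios to ACTB in these libraries therefore differ from the FPKM themselves. AXL, a TEAD target, stood at 36.8 and 67.9 per 1000 of ACTB in Con and at 3.77 and 6.18 per 1000 with GLUP. On the log2 scale without a pseudocount its difference was −1.77 in FPKM, −3.37 per ACTB and −2.32 per geometric mean of the 13 other reference genes. For CCN1 the values were −1.38, −2.99 and −1.94, and for CCN2, which had a mean under 1 FPKM, −2.67, −4.28 and −3.23. These 3 genes were lower with GLUP by each measure, and the difference was largest per ACTB. The other 2 readouts of the study on this list were not lower in FPKM. CCNA2 overlapped, at 4.04 and 2.06 FPKM in Con and 3.27 and 3.39 FPKM with GLUP, and CGB5, with a mean under 1 FPKM, was listed at 0 in Con replicate 1 and stood at 0.0639 FPKM in Con replicate 2 and at 0.371 and 0.468 FPKM with GLUP. The study lists both among the TEAD signature genes lowered by GLUP. Ratios to ACTB were not computed for these 2, and the higher ACTB with GLUP would move such ratios down.

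The 5 genes with the profile closest to CFL1 over the 4 libraries were TUBA1B-AS1, CCDC124, BST2, COPE and LMAN2, by the Euclidean distance between log2(FPKM + 1) values centred on each gene's mean, at distances of 0.27 to 0.65. All 5 had their lowest value in Con replicate 2, as CFL1 did, which follows from how they were chosen. CCDC124 stood at 45.7 and 5.09 FPKM in Con and at 121 and 108 FPKM with GLUP, and COPE, a coat protein of Golgi vesicles, at 88.6 and 11.1 FPKM against 225 and 203 FPKM. Among the other members, ACTG1 was the nearest to CFL1, as the 70th closest of all genes (distance 1.66), then ACTB as the 261st (2.40). CFL2 was the farthest of them (5.36).

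As a check of the label, markers of gastric mucosa were at or near 0, where 4 of 6 (MUC6, TFF1, TFF2 and GKN1) were listed at 0 in every library, and MUC5AC and CLDN18 did not exceed 0.063 FPKM. Epithelial markers were low, with 3 of 5 averaging 1 FPKM or more, a summed level of 2.97 to 5.87 FPKM and CDH1 and EPCAM at most at 0.124 FPKM. Of the mesenchymal markers, VIM stood at 293 to 387 FPKM, ZEB1 at 2.88 to 19.2 FPKM and CDH2 at most at 0.0508 FPKM. Of 5 fibroblast markers, 3 averaged 1 FPKM or more, and the 5 summed to 49.5 and 60.7 FPKM in Con and to 49.1 and 46.6 FPKM with GLUP. DCN stood at 20.1 to 41.3 FPKM, COL3A1 at 15.3 to 21.5 FPKM and COL1A1 at 2.97 to 6.9 FPKM. COL1A2 and PDGFRB were at most at 0.443 and 0.198 FPKM. Leukocyte markers (0 of 4 at a mean of 1 FPKM) and endothelial markers (0 of 3) summed to at most 1.52 and 0.0045 FPKM. The label HGC-27 thus rests on the sample records and not on these markers. The gastric markers, CDH1 and EPCAM were at or near 0 while DCN and COL3A1 were expressed. The study describes HGC-27 as undifferentiated. The identity of the line and the part of these levels in the values above were not tested.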

How the data were processed

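RNA of cells labelled HGC-27 was sequenced in 4 libraries, with groups and replicate numbers taken from the sample titles. The deposited table holds FPKM per gene, which the authors made with an online service of Majorbio. The submitters' processing notes name HISAT2, Cufflinks, RSEM and GRCh38.p10 without versions or roles, whereas the row identifiers have the form of GENCODE annotation lifted to GRCh37. The handling of strand and of shared reads is not given in the sources used here. The 62492 rows (49 second copies of pseudoautosomal genes) were summed to 62443 genes, and 99.55% of identifiers matched a gene name. FPKM summed to between 909735 and 949919 per library. Between 15 and 22 values per library lie above 0 and below 1e-05 FPKM, so values are not whole reads. The depth behind a value is unknown, and its counting error cannot be stated.

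Values were used as deposited on the log2(FPKM + 1) scale. The 7588 genes averaging 1 FPKM or more were fitted with limma 3.58.1 (R 4.3.3), allowing a trend of variance with mean and adjusting p by Benjamini-Hochberg. The fit was tried on simulated data in which all libraries shared the same variance for a gene. Such data cannot show how the test behaves where controls lie further apart than GLUP libraries, as they do here. Replicates are named biological in the methods, and p-values measure only the spread between these libraries. The members, the lists and the alternatives were chosen with earlier results of these data known. In each list the 3 tested genes with the highest mean were named, with AXL, CCN1 and CCN2 for the ratio to ACTB, all members, expressed pseudogenes and overlapping genes, and the 5 profiles nearest to CFL1. ARPC1A, ACTR2, ACTN1, CGB5 and the actin isoforms that failed the filter were named after their values were seen. So were the coactivators of SRF and the reference genes other than GAPDH, B2M and PPIA. Sequence words and identities came from GENCODE transcripts (Biopython 1.88), promoters from RefSeq on GRCh38.p14. The alternatives were another pseudocount (0.1), other filters (all genes above 0, a mean of 5 FPKM), quantile normalization, centring on medians, a block for the replicate number, no trend, a fold of 1.5, a GC correction (lowess, span 0.3, GC content known for 7570 genes) and leaving out each library. Values of some single genes are not reported here.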

Additional observations from a re-analysis of the deposited data

How the results depend on the processing

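Genes past 2-fold numbered 1753 as reported, 2840 when 0.1 FPKM was added instead of 1, 864 with the GC correction with or without a replicate block, 3836 past 1.5-fold, and between 1138 (without Con replicate 2) and 2757 (without Con replicate 1) with a library left out. Those with an adjusted p under 0.05 in limma, 2 as reported, were 1 with a pseudocount of 0.1, with centring and with quantile normalization, and 16 with a replicate block plus GC correction. They were 0 with all genes above 0, a mean of at least 5 FPKM, no trend and the GC correction, where 1293, 890, 1461 and 702 genes past 2-fold had an unadjusted p under 0.05. With a library left out they ran from 4 to 2710. The 2710 came without Con replicate 1, and 1020 without Con replicate 2, where the GLUP libraries alone set the spread and the lone control is assumed to vary like them.

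Members past 2-fold numbered 5 with each library left out and 4 or 5 under the other alternatives. Their median of −0.32 became 0.026 with centring and ran from −0.418 to 0.0717 with a library left out. PFN1 turned from −1.26 to 0.20 without Con replicate 1, and stood at −2.72 without Con replicate 2. The other members past 2-fold kept their direction under all alternatives. The genes of the other actin lists past 2-fold, 12 as reported, numbered 18 with a pseudocount of 0.1, 6 with the GC correction, with or without the block, and 6 (without Con replicate 2) to 14 (without Con replicate 1) with a library left out. Causes beyond the construction of an alternative were not tested. In this balanced design, neither a replicate block nor leaving out the trend can change a fold difference. Counts past 2-fold under them were therefore fixed in advance. The count with an adjusted p under 0.05 in limma, which a block could change, stayed at 2. Nothing ties equal numbers to a shared day, and the replicate differences of the groups correlated at 0.126 over genes.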
